A study of Mus musculus with 88 samples.

Results

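Syntenin-1, ALIX and 7 tetraspanins were followed in mouse dendritic cells as old protein was lost and new protein was made. The listed proteins were Sdcbp (syntenin-1), Pdcd6ip (ALIX), Cd9, Cd63, Cd81, Cd82, Cd53, Cd37 and Cd151, and a member was a protein group whose first gene name was on that list. Of the 9 listed names, 6 had a group among the 5899 groups kept of the trypsin experiment, and Cd63, Cd53 and Cd151 had none there. The members were chosen by name with the un-normalised M/L, H/L and H/M ratios of these runs, at all mock and LPS times, already in view, so their values and counts are given as a description. No test of a member is offered as evidence that it differs.

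Tetraspanins are small proteins that cross the membrane several times and gather integrins, immunoglobulin-family proteins and MHC class II into patches of membrane. Several of them are the classical surface markers of exosomes, the vesicles that form inside late endosomes and are released from the cell. Syntenin-1 is a cytosolic adaptor that binds the tails of syndecans and of CD63 through its PDZ domains, and it recruits ALIX, which connects the cargo to the ESCRT-III machinery that pinches vesicles off. In dendritic cells these vesicles carry MHC class II, and CD37, CD81, CD82 and CD9 are known to bear on antigen presentation and migration.

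The cells were dendritic cells derived with GM-CSF from bone marrow cells of C57BL/6J females. The sources used here do not give an age. They were grown in medium-labelled arginine and lysine (the M form, made before 0 h). At culture day 9 all cells were pooled, moved to heavy-labelled medium (the H form, made after 0 h) and given lipopolysaccharide (LPS, 100 ng/ml, from a rough K12 strain of E. coli) or no stimulus (mock). Each lysate was read against 1 shared mix of unlabelled dendritic cells (L). The 42 trypsin runs formed 21 groups of 2 replicates, namely 0 h and, under LPS and under mock, 0.5 and 1 h, each full hour from 2 to 6 h, and 9, 12 and 24 h. A further 2 samples digested with AspN and 2 with LysN held unlabelled cells at 0 h. The labels do not say that replicates came from separate cultures, so the errors below reflect run-to-run spread that may be technical. The series' design text covers the times to 12 h, and the sources used here do not say how the 24 h samples were handled.

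M/L rested on 68083 to 109064 peptide pairs per run, and a run gave an H/L ratio for 3538 to 4082 proteins. Of 8 dendritic and myeloid markers 7 had a group (Flt3 had none), and of 8 lymphocyte markers only Lck had one. Granulocyte markers (8 of 8 with a group) held 1.86% to 1.93% of the summed M and H intensity at 0 h. At 6, 9 and 12 h they held 1.07% to 2.04% in mock and 1.23% to 2.12% in LPS samples. This sum hides markers that moved apart. Over those times total Ngp differed by -1.28 ± 0.05 and Ltf by -1.19 ± 0.07 (log2 LPS minus mock, SE). Mpo stood at -0.29 ± 0.18, S100a8 at 0.01 ± 0.07 and S100a9 at 0.15 ± 0.04, and the other granulocyte markers were not tested. Macrophage markers (5 of 7 with a group) held 0.357% to 0.494% in mock and 0.235% to 0.420% in LPS samples at those times. The dendritic and myeloid markers went the other way, with 0.167% to 0.190% in mock and 0.186% to 0.227% in LPS samples. At 24 h the granulocyte share was 0.884% and 0.937% in mock and 0.612% and 0.705% in LPS samples. The macrophage share was 0.481% and 0.736% in mock and 0.240% and 0.342% in LPS samples at 24 h, and the dendritic and myeloid share was 0.235% and 0.242% against 0.190% and 0.194%. The part of these cells in the results below was not tested. In lysates, less protein per cell and fewer cells of a type cannot be told apart. The run LPS 12 h replicate 2 had the highest total ratio to the light mix, with a run factor of 0.69 on the log2 scale. The late new protein, total and H/M of syntenin-1 are also described without it.

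Syntenin-1 and ALIX were abundant at 0 h, and the tetraspanins were seen through few peptides. iBAQ is a protein's summed intensity divided by the number of peptides it could give. In the trypsin runs it was taken over all channels, the light mix included. It placed ALIX at percentile 91.4 of all proteins in both 0 h trypsin replicates and syntenin-1 at percentiles 81.5 and 77.4. ALIX was read from 63 peptides that covered 67.8% of its 874 residues, and syntenin-1 from 15 peptides that covered 53.5% of its 299 residues. Cd9, a tetraspanin of platelets and leukocytes that associates with integrins, lay at percentiles 68.5 and 63.3 from 3 peptides. Cd81, its close partner and a part of the B cell coreceptor, lay at percentiles 47.2 and 56.8 from 1 peptide. Cd82, a tetraspanin known as a suppressor of metastasis, lay at percentiles 4.41 and 9.78 from 3 peptides, and Cd37, a tetraspanin of leukocytes, had an intensity of 0 in both 0 h replicates. From the M channel alone, which leaves out the light mix, ALIX lay at percentiles 92.1 and 91.7, syntenin-1 at 78.5 and 74.0, and Cd9 at 61.6 and 67.5.

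The tetraspanins seen differed between the digests. In the AspN digest Cd9 lay at percentiles 93.0 and 93.8, above syntenin-1 (86.0 and 83.7) and ALIX (86.9 and 87.8). Cd63, the tetraspanin of late endosomes and the binding partner of syntenin-1, lay at percentiles 76.6 and 75.1 there, and Cd53, a tetraspanin found on all leukocytes, at percentiles 28.3 and 28.7, each from 1 peptide. In the LysN digest syntenin-1 lay at percentiles 89.8 and 88.6 and ALIX at percentiles 89.4 and 88.1. Cd9 lay at percentiles 67.3 and 75.4 there and Cd82 at percentiles 28.5 and 29.3. Cd151, a partner of laminin-binding integrins, had a value in 1 of the 2 LysN replicates, at percentile 6.0. Among the 2421 proteins that all 3 digests measured, Cd9 stood at percentiles 45.4 and 39.0 in trypsin but at percentiles 90.6 and 91.8 in AspN. On the same proteins syntenin-1 stood at percentiles 66.7 and 60.1 in trypsin and 81.2 and 78.8 in AspN, and ALIX at 84.2 and 84.4 in trypsin and 82.5 and 83.9 in AspN. The order of Cd9 against syntenin-1 and ALIX thus differed between the digests, and syntenin-1 was also placed lower in trypsin. The AspN and LysN samples were unlabelled and titled as a peptide library protocol, while trypsin iBAQ included the light mix. The part of the enzyme cannot be told apart from these.

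**Figure D1:**
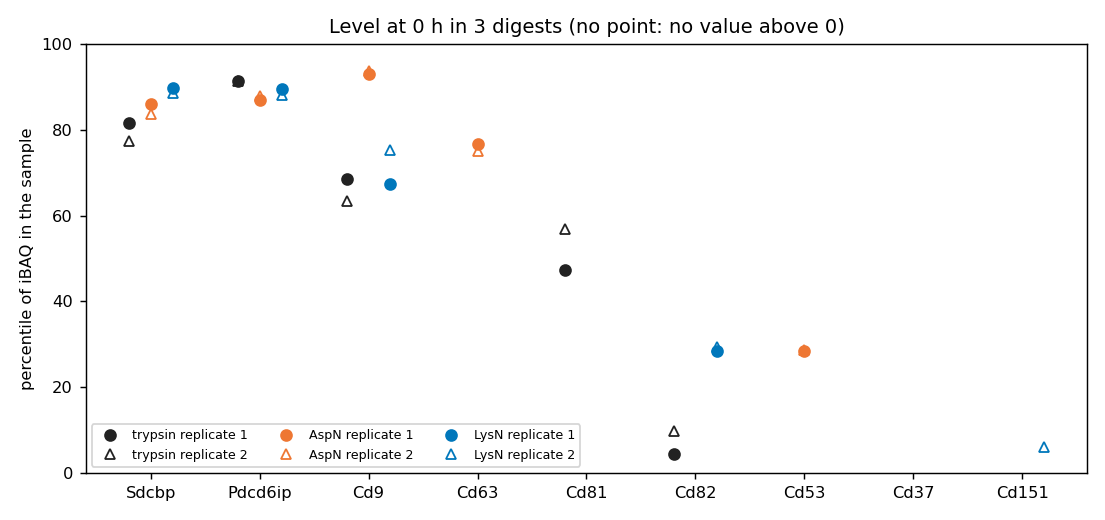
Percentile of iBAQ within each 0 h sample (vertical axis, 0 to 100) for the 9 listed proteins in the trypsin, AspN and LysN digests, 1 point per replicate. Trypsin values are over all channels, the light mix included. Among all proteins of each sample syntenin-1 and ALIX lie between percentiles 77.4 and 91.4 in the 3 digests, Cd9 reaches percentile 93.8 in AspN, and Cd63 and Cd53 have points in AspN alone.

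Ratios in time courses were plentiful for 3 members. Syntenin-1 and ALIX had M/L and H/L in 42 of 42 runs, syntenin-1 from 7 to 22 H/L peptide pairs per run (median 12.5) and ALIX from 91 to 146. Cd9 had them in 40 of 42 runs, from a median of 4 pairs, with none in mock 3 h replicate 1 and LPS 6 h replicate 2. Cd82 had M/L in 15 and H/L in 11 runs, Cd37 in 10 and 9, and Cd81 in 1. Every deposited ratio rested on at least 2 pairs. Of the 6 members with a group, 3 could therefore enter the fits across all proteins, and Cd82, Cd37 and Cd81 are described by their values alone.

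Syntenin-1 was among the most quickly replaced proteins of these cells. The H/M ratio, new over old protein, was 0.426 and 0.114 at 0 h, when the heavy medium had just been added, and these values give the background of the heavy channel for it. In mock samples it was 0.261 and 0.208 at 0.5 h, 0.642 and 0.536 at 3 h, 1.33 and 1.35 at 6 h, 2.01 and 2.15 at 9 h, and 3.25 and 3.74 at 12 h. The heavy form thus outweighed the old form in both mock replicates from 6 h onwards. The median protein had an H/M of 0.166 and 0.151 at 0 h and of 0.272 and 0.248 in mock samples at 12 h, where syntenin-1 stood at percentiles 98.9 and 99.5 of all proteins.

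In LPS samples the same ratio ran level with mock to 3 h and then above it. It was 0.705 and 0.632 at 3 h, 1.10 and 0.981 at 4 h, 1.48 and 1.55 at 5 h, 1.92 and 2.24 at 6 h, 3.94 and 3.80 at 9 h, and 5.64 and 5.63 at 12 h. At 4, 5, 6, 9, 12 and 24 h both LPS runs lay above both mock runs, and at the 4 earlier times the groups overlapped. Of all proteins, 15.4% of 2734 were so placed at 6, 9 and 12 h together, and 44.7% of 3095 at 24 h. As shares, 57.0% and 57.5% of syntenin-1 was new in mock samples at 6 h against 65.8% and 69.2% in LPS samples, and at 12 h 76.5% and 78.9% against 85.0% and 84.9%.

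A straight line through log2 of the old share, -log2(1 + H/M), over the runs of 0.5 to 12 h put a rate on this. In mock samples the slope of syntenin-1 was -0.162 ± 0.0056 per h (SE, 18 runs), a half-time of 6.17 h, which ranked 2 of the 3342 proteins tested. The protein at rank 1 carries no gene name, and Slfn2, Csf1r, Dpep2 and Pla2g7 at ranks 3 to 6 had half-times of 6.20, 6.20, 6.32 and 6.58 h. Those of Slfn2, Csf1r and Dpep2 lay within their errors of syntenin-1. In LPS samples its half-time was 4.41 h, at rank 13. The median protein had 123 h in mock and 111 h in LPS samples. These half-times take no account of cell growth.

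Cd9 and ALIX were replaced on another scale. ALIX had a slope of -0.0126 ± 0.0017 per h in mock samples (SE, 18 runs), a half-time of 79.1 h, and 64.5 h in LPS samples. Cd9 had -0.0155 ± 0.0071 per h in mock samples, a half-time of 64.7 h, and 47.5 h in LPS samples. They ranked 1175 and 964 of 3342 in mock samples, both faster than the median protein, and their slopes lay within 1 standard error of Cd9 of each other. By this measure the 6.17 h of the adaptor stands against 79.1 h for ALIX, which it binds. H/M of ALIX was 0.103 and 0.104 at 0 h and only 0.233 and 0.235 in mock samples at 12 h. From the slope of log2 M/L, the old form alone, ALIX had 50.8 h in mock and 129 h in LPS samples, the opposite order. Cd9 had 70.1 h and 34.2 h by that slope. The half-times of ALIX and Cd9 thus depend on the measure.

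**Figure D2:**
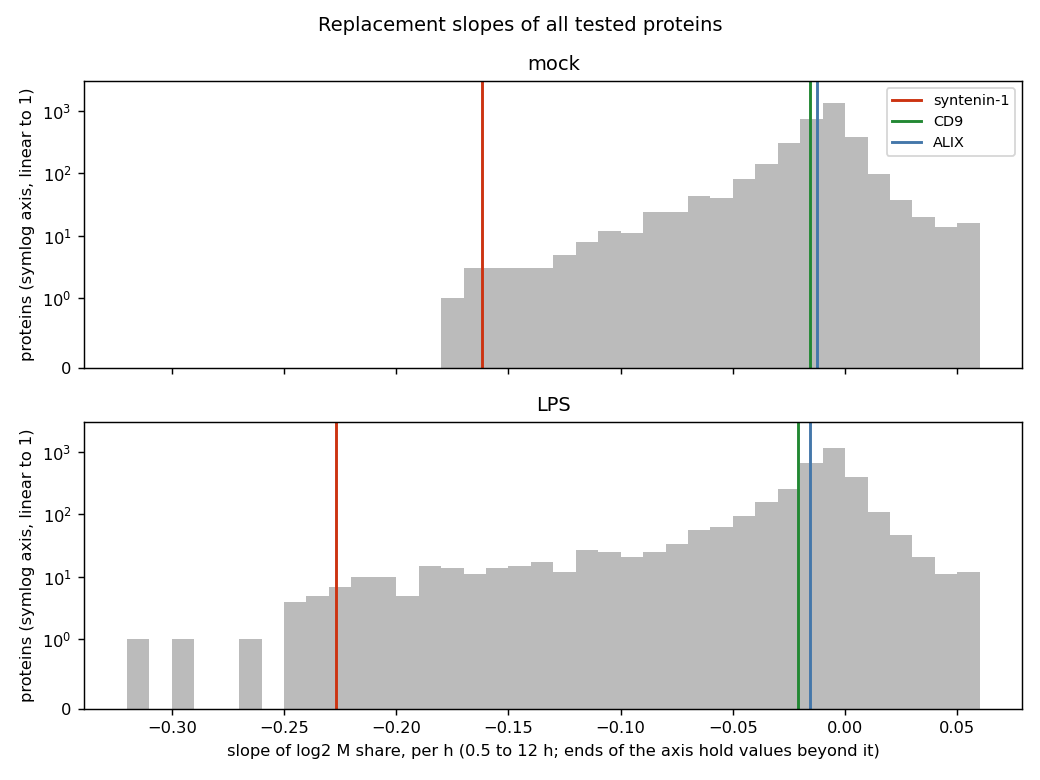
Number of proteins (symlog axis, linear to 1) by the slope of log2 of the old share per hour, in mock (top) and LPS (bottom), over 3342 proteins, with lines at syntenin-1, CD9 and ALIX. Syntenin-1 lies in the far tail in both panels, at -0.162 in mock and -0.227 in LPS, and CD9 and ALIX lie in the main body.

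The slope of syntenin-1 was steeper in LPS than in mock samples by 0.065 ± 0.0079 per h (SE), while the differences of ALIX (-0.0029 ± 0.0024) and Cd9 (-0.0056 ± 0.010) were no larger than about their errors. Beside these, 13.9% of all 3342 proteins were called for this difference with limma at an adjusted p under 0.05, and syntenin-1 was 1 of the 3 members so called. The old form taken alone gave another picture. M/L of syntenin-1 fell with time by 0.167 ± 0.011 per h on the log2 scale in mock and by 0.142 ± 0.011 in LPS samples (SE), half-times of 5.98 h and 7.06 h. That difference, LPS minus mock, was 0.026 ± 0.016 per h, of the opposite sign, and was not called, beside 19.9% of 3531 proteins that were. It was not refitted without LPS 12 h replicate 2, which stood 0.79 above its mock pair in log2 M/L. The steeper loss of the old share under LPS thus went with more new protein and not with lower M/L between 0.5 and 12 h.

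The 3 forms of syntenin-1 show this run by run. Ratios to the light mix were divided by a factor for each run so that the typical protein's total stood at 1, and are called scaled levels. Scaled M/L, the old protein, was 0.705 and 0.628 at 0 h. It was 0.312 and 0.250 in mock and 0.318 and 0.225 in LPS samples at 6 h, 0.209 and 0.233 in mock and 0.218 and 0.230 in LPS samples at 9 h, and 0.172 and 0.114 in mock and 0.175 and 0.197 in LPS samples at 12 h. The 2 treatments overlapped at 6 and at 9 h, and both LPS runs lay above both mock runs at 2 h and at 12 h. At 12 h the log2 difference of the pair was 0.02 in replicate 1 and 0.79 in replicate 2.

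Scaled H/L, the new protein of syntenin-1, was 0.250 and 0.177 in mock and 0.294 and 0.264 in LPS samples at 3 h. It was 0.406 and 0.284 in mock and 0.597 and 0.473 in LPS samples at 6 h, 0.397 and 0.480 in mock and 0.705 and 0.822 in LPS samples at 9 h, and 0.453 and 0.540 in mock and 0.813 and 1.13 in LPS samples at 12 h. Both LPS runs lay above both mock runs at each of the 7 times from 3 to 24 h, as in 2.39% of the 2552 proteins with a value in all those runs. At 0.5, 1 and 2 h the treatments overlapped.

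The total of both forms was higher under LPS at several times between 3 and 12 h. Scaled total syntenin-1 was 0.948 and 0.706 at 0 h. It was 0.684 and 0.498 in mock and 0.703 and 0.689 in LPS samples at 3 h, 0.634 and 0.634 in mock and 0.802 and 0.719 in LPS samples at 4 h, and 0.530 and 0.662 in mock and 0.696 and 0.735 in LPS samples at 5 h. At 6 h it was 0.718 and 0.535 in mock and 0.915 and 0.698 in LPS samples, at 9 h 0.606 and 0.714 against 0.923 and 1.05, and at 12 h 0.625 and 0.654 against 0.989 and 1.32. Both LPS runs lay above both mock runs at 3, 4, 5, 9 and 12 h, as in 2.3% of 2606 proteins, and the groups overlapped at the earlier times, at 6 h and at 24 h.

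**Figure D3:**
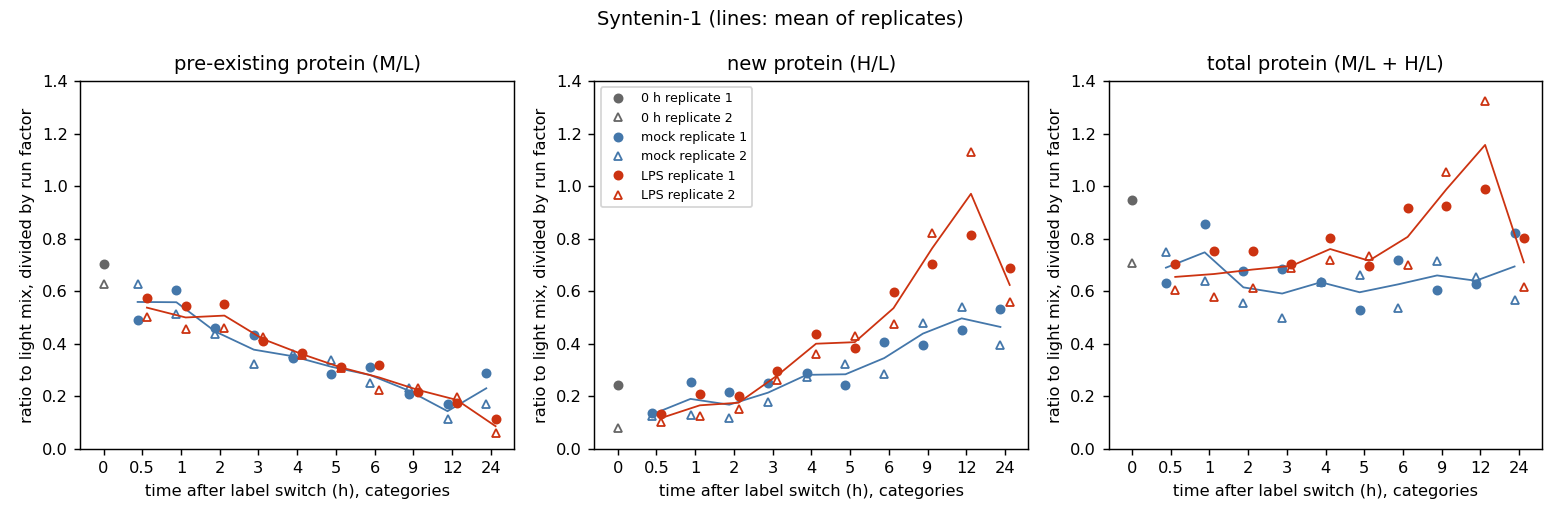
Scaled level of syntenin-1 (ratio to the light mix divided by the run factor) against time in hours (categories, not to scale), for old protein, new protein and their total, with 1 point per run and lines through replicate means. Old protein overlaps between treatments at the times to 9 h other than 2 h, new protein under LPS lies above mock from 3 h and reaches 0.813 and 1.13 at 12 h, and the totals come together again at 24 h.

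Over 6, 9 and 12 h (6 LPS against 6 mock samples, called late below), new syntenin-1 was 1.74-fold higher in LPS, a log2 difference of 0.80 ± 0.23 (SE), and higher in 6 of 6 same-time pairs, as in 19.2% of 2734 proteins. Its old form differed by 0.12 ± 0.14, its total by 0.60 ± 0.13 (1.51-fold) and its H/M by 0.74 ± 0.22. In the old form the 12 h pair of replicate 2 stood at 0.79, and the other late pairs lay between -0.15 and 0.06. Of the 3 members tested, syntenin-1 alone was called for new protein, beside 12.3% of 3316 proteins in either direction and 10.6% in the direction of LPS. It was also the only one called for total protein, beside 19.8%, and for H/M, beside 12.4%. No member was called for old protein, beside 17.1% of 3432 proteins. Without LPS 12 h replicate 2, its new protein differed by 0.72 and H/M by 0.74, and neither was called, while the total was still called. The calls of new and total protein and of H/M also ended with the authors' normalised ratios (0.15, 0.15 and 0.07, where the median protein stood at -0.48, -0.27 and -0.45) and with summed channel intensities (0.49, 0.41 and 0.44).

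ALIX differed little, and not by the same amount at each time. Its new protein differed by 0.34 at 6 h, 0.10 at 9 h and 0.25 at 12 h (log2 LPS minus mock). Its total was lower under LPS at first, by -0.12 ± 0.05 at 0.5 h and -0.10 ± 0.05 at 1 h, and stood at 0.09 ± 0.05 at 3 h (SE). Scaled H/L was 0.121 and 0.127 in mock and 0.154 and 0.159 in LPS samples at 6 h, 0.167 and 0.173 in mock and 0.178 and 0.185 in LPS samples at 9 h, and 0.200 and 0.200 in mock and 0.239 and 0.236 in LPS samples at 12 h. Both LPS runs lay above both mock runs at each of these times, as in 14.3% of 2734 proteins. The late log2 difference was 0.23 ± 0.13 for new protein, 0.04 ± 0.03 for old protein and 0.07 ± 0.03 for the total (SE, 6 against 6 samples), and none was called. Its background was high for these levels: scaled H/L at 0 h was 0.103 and 0.100, against 0.200 and 0.200 in mock samples at 12 h.

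Cd9 was not called in any form at the late times. Scaled H/L was 0.186 and 0.120 in mock and 0.261 and 0.251 in LPS samples at 9 h, and 0.263 and 0.194 in mock and 0.212 and 0.264 in LPS samples at 12 h. LPS lay above mock at 9 h for new and total protein, and the treatments overlapped at 12 h. For the old form LPS lay above mock at 1 h and the treatments overlapped at the other times to 12 h that had all 4 values. The late log2 difference, fitted without LPS 6 h replicate 2, was 0.10 ± 0.35 for new protein, -0.10 ± 0.13 for old protein and -0.06 ± 0.13 for the total (SE, 5 against 6 samples), and none was called. The error of its new protein allows a change as large as that of ALIX in either direction.

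**Figure D4:**
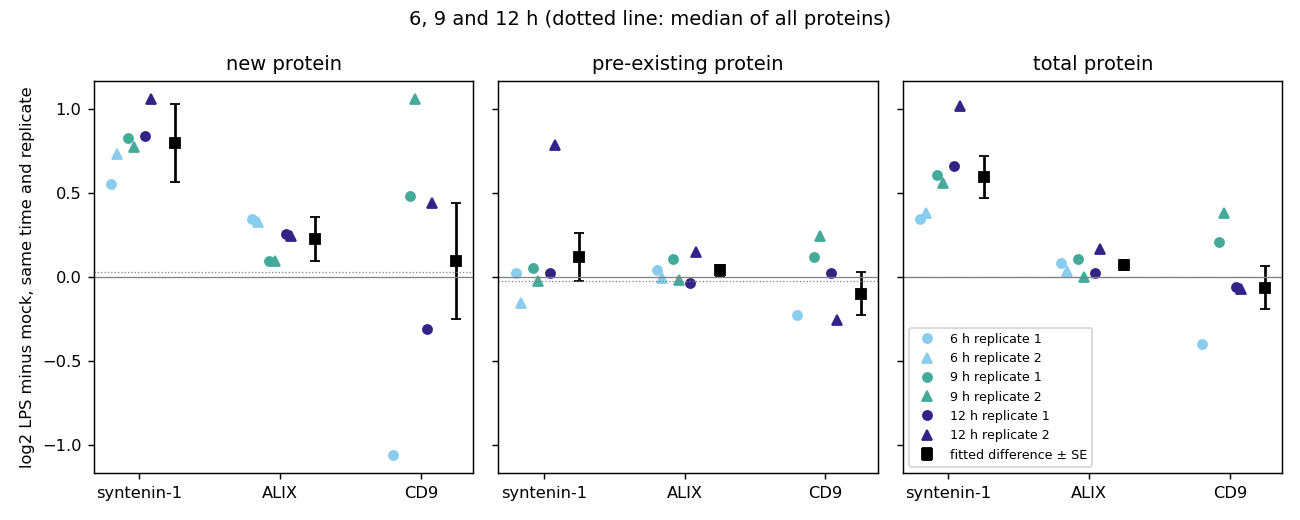
Log2 difference of LPS minus mock between runs of the same time and replicate at 6, 9 and 12 h, for syntenin-1, ALIX and CD9, with the fitted difference ± SE as black squares and the median of all proteins as a dotted line. All 6 pairs of syntenin-1 lie above 0 for new and for total protein, as in 19.2% and 15.4% of 2734 proteins. The pairs of CD9 spread to both sides.

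Earlier, at 1, 2 and 3 h, none of the 3 members was called for new protein, beside 0.475% of 3371 proteins. The log2 difference was 0.12 ± 0.23 for syntenin-1, 0.07 ± 0.13 for ALIX and -0.40 ± 0.35 for Cd9 (SE, LPS minus mock; mock 3 h replicate 1 is missing for Cd9). The difference of late from early new protein was 0.68 ± 0.33 for syntenin-1 and was not called, beside 7.22% of 3144 proteins. At this precision a change of syntenin-1 with time could not be told from the spread between runs by that test.

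At 24 h the forms of syntenin-1 parted differently. Its scaled M/L was 0.289 and 0.172 in mock samples, against 0.172 and 0.114 at 12 h, and 0.113 and 0.0592 in LPS samples, both below the mock runs, as in 38.9% of 3136 proteins. H/M was 2.32 and 3.26 in mock samples, lower than the 3.25 and 3.74 of 12 h, and 6.11 and 12.4 in LPS samples, both above the mock runs, as in 44.7% of 3095 proteins. Scaled H/L was 0.532 and 0.395 in mock and 0.689 and 0.558 in LPS samples, and the total was 0.821 and 0.567 in mock and 0.802 and 0.618 in LPS samples. The old form differed by -1.45 ± 0.25 on the log2 scale, new protein by 0.44 ± 0.40 and the total by 0.04 ± 0.22 (SE, 2 against 2 samples). The difference of 24 h from late in the old form was -1.57 ± 0.29 and was called, beside 17.3% of 3062 proteins. The same difference in the total was -0.55 ± 0.25 and was not called, beside 17% of 2987 proteins, so a change of the total between late times and 24 h could not be told from the spread. The macrophage, granulocyte and dendritic marker shares were also lower in LPS samples at 24 h, and their part in these results and in those of Cd9 was not tested.

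ALIX and Cd9 moved apart in total protein at 24 h. Scaled total ALIX was 0.929 and 0.932 in mock and 1.04 and 1.05 in LPS samples, a log2 difference of 0.17 ± 0.05. Its H/M was 0.421 and 0.423 in mock and 0.611 and 0.597 in LPS samples, while its scaled M/L was 0.646 and 0.641 in mock and 0.639 and 0.644 in LPS samples. The old form thus overlapped, and both LPS runs of the new form lay above both mock runs, as in 36.8% of 3095 proteins. Scaled total Cd9 was 1.25 and 1.48 in mock and 1.00 and 0.864 in LPS samples, a log2 difference of -0.55 ± 0.21, and both its old form (0.626 and 0.822 in mock, 0.533 and 0.543 in LPS samples) and its new form (0.622 and 0.661 in mock, 0.471 and 0.321 in LPS samples) lay lower under LPS. Both LPS runs lay below both mock runs in 38.9% of 3136 proteins for the old form and 26.2% of 3095 for the new form. These 2 of the 3 members were called for the total at 24 h, beside 37.8% of 3095 proteins. Neither call held without the run factor (0.41 for ALIX and -0.31 for Cd9, where the median protein stood at 0.25), with the authors' normalised ratios (0.08 and -0.95), with summed intensities (0.14 and -0.82), or with either replicate left out. No member was called for new protein at 24 h, beside 10.2%.

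Cd82 had few ratios, each of 2 or 3 pairs, and they ran in 1 order with time. H/M in mock samples was 0.405 at 2 h, 0.469 at 4 h, 0.874 at 9 h, 1.16 at 12 h and 1.5 at 24 h, with 1 run at each time. In LPS samples it was 0.505 at 4 h, 0.715 at 5 h, 0.836 at 6 h and 1.62 at 9 h, with 1 run each, and 5.80 and 7.12 in the 2 runs at 24 h. Those 24 h values stood at percentiles 98.5 and 98.9 of all proteins, and the mock value of 1.5 at percentile 92.3. Scaled total Cd82 at 24 h was 2.24 and 1.68 in LPS samples and 0.525 in the 1 mock run. With 1 mock value there is no replicate check of that gap. The summed intensities of its 3 peptides, which also count single pairs, gave H/M of 7.67 and 8.88 in LPS and 2.05 in the mock run at 24 h, and of 7.26 and 2.18 in LPS and 0.806 and 0.991 in mock samples at 12 h. At 12 h both LPS values lay above both mock values. How many of all proteins show such a gap in summed intensities was not computed. In deposited H/M, another measure, 44.7% of 3095 did at 24 h and 22.5% of 2793 at 9 and 12 h together. Neither is a background for intensities at 12 h.

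The old form of Cd82 fell from 2 h to 24 h in mock samples, though its 0 h value lay below those of 2, 3 and 4 h. In LPS samples it did not fall in order, and only the lower of the 24 h runs lay below the 9 h value. Scaled M/L was 0.542 at 0 h, then 0.835 at 2 h, 0.721 at 3 h, 0.551 at 4 h, 0.483 at 5 h, 0.410 at 9 h, 0.277 at 12 h and 0.182 at 24 h in mock samples, 1 run each. In LPS samples it was 0.812 at 2 h, 0.589 at 4 h, 0.338 at 5 h, 0.370 at 6 h, 0.269 at 9 h, and 0.329 and 0.207 at 24 h. It had too few ratios for a fitted slope.

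Cd81 had a deposited ratio in 1 run, 0 h replicate 2, with an M/L of 0.883 and an H/M of 0.365. The channel intensities of its 1 peptide gave more. Their H/M was 0.231 and 0.225 at 0 h, 0.476 in 1 mock and 0.576 in 1 LPS run at 2 h, 0.771 and 0.757 in mock and 1.07 and 1.39 in LPS samples at 6 h, and 1.39 in 1 mock run at 9 h. Both LPS values lay above both mock values at 6 h. The share of all proteins with such a gap in these intensities was not computed. For deposited H/M, another measure, it was 44.7% of 3095 proteins at 24 h and 15.4% of 2734 at 6, 9 and 12 h together. Neither is a background for intensities at 6 h. No run at 12 or 24 h gave a value, and 1 peptide cannot show whether its pairs behaved like the protein.

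Cd37 was erratic. Its H/M was 1.03 and 2.21 in mock samples at 0.5 h, 1.81 in 1 mock run at 2 h, 0.535 at 4 h, 0.469 at 5 h and 1.17 at 6 h, and in LPS samples 0.365 at 3 h and 1.20 and 0.426 at 4 h. A ratio of 2.21 at 0.5 h, the highest of them, falls at the first time after the switch of medium, so no course over time can be read from these values.

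The proteins whose new-protein response was most like each member's were taken over the 20 same-time, same-replicate differences of LPS minus mock in log2 H/L. For syntenin-1 these were Serpinb2 (Pearson r = 0.90), an inhibitor of plasminogen activators, Sqstm1 (r = 0.90), the autophagy receptor p62, and Slc3a2 (r = 0.88), the heavy chain of amino acid transporters and integrin partner known as CD98. For ALIX they were Mlkl (r = 0.82), Il1rn (r = 0.81) and Prdx6 (r = 0.80). For Cd9, over 18 pairs, they were Pafah1b3 (r = 0.72), Cs (r = 0.70) and Dak (r = 0.67). These were the 3 highest of 2778 proteins in each case, the points share runs and the light mix, and the values describe likeness only.

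Tetraspanins beyond the list were hardly seen. Of 22 others, Tspan14 and Tspan31 had a group and none had enough ratios to be tested. Of 17 partner proteins that tetraspanins gather, 13 had a group and 9 were tested for late new protein. Of these, 4 rose and none fell, beside 12.3% of all proteins. The 4 were Icam1, the ligand of leukocyte integrins, by 2.26 ± 0.19 on the log2 scale, Itga5 by 1.51 ± 0.20 and Itgb1 by 1.26 ± 0.17, the 2 chains of the fibronectin receptor, and Cd44, the hyaluronan receptor, by 1.24 ± 0.22 (SE, 6 against 6 samples). The median over the 9 was 0.43, against 0.03 over all proteins. Their totals rose as well, Icam1 by 1.16 ± 0.10, Itga5 by 0.97 ± 0.11, Itgb1 by 0.62 ± 0.06 and Cd44 by 0.50 ± 0.10, and total Cd36, a scavenger receptor, fell by 0.35 ± 0.10. H2-Aa, a chain of MHC class II, was at -0.21 ± 0.31 for new protein and H2-Ab1 at 0.43 ± 0.21, neither past the test. With summed intensities the new-protein calls of Icam1, Itga5 and Cd44 ended, and that of Itgb1 held under all 12 alternatives. The total of Cd36 was not called in 5 of 10 alternatives.

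Of 34 proteins of the syntenin and ALIX route (syndecans, ESCRT subunits, small GTPases and their regulators), 26 had a group and 20 were tested for late new protein. Of these 3 rose and none fell, a share near the 12.3% of all proteins. Src, the kinase that phosphorylates syndecan and syntenin, was higher by 2.10 ± 0.55, Chmp4b, the ESCRT-III subunit that ALIX binds, by 1.47 ± 0.16, and Vps4b, an ATPase that takes ESCRT-III apart, by 0.60 ± 0.12 (SE). Their totals were higher by 0.68 ± 0.10, 0.46 ± 0.05 and 0.17 ± 0.06. The median over the 20 was 0.11, against 0.03 over all proteins. Among early ESCRT subunits new Tsg101 stood at -0.08 ± 0.24, Hgs at 0.17 ± 0.23 and Stam2 at 0.55 ± 0.26. Of the proteins that bind ALIX, new Pdcd6 (ALG-2) stood at -0.08 ± 0.24 and Cd2ap at -0.50 ± 0.42, and none of these 5 was past the test for new or for total protein. The calls of Vps4b ended in 5 of 12 alternatives for new protein and in 6 of 10 for the total, and its sign turned with summed intensities or the authors' ratios. At 24 h 5 of the 20 were higher and 3 lower in total, beside 17.7% and 20.1% of all proteins, so the count was near the background. The higher ones were Chmp4b by 1.10 ± 0.08, Src by 0.91 ± 0.17, Chmp2a by 0.85 ± 0.16, Cd2ap by 0.67 ± 0.25 and Vps4b by 0.48 ± 0.10. The lower ones were Rab31 at -0.51 ± 0.17, Hpse (heparanase) at -0.43 ± 0.14 and Lgals3 (galectin-3) at -0.19 ± 0.07.

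Chmp4b, to which ALIX binds, was called for the slope difference and ALIX was not. Its half-time was 58.6 h in mock and 13.8 h in LPS samples, a slope difference of -0.056 ± 0.0061 per h, where ALIX had 79.1 h and 64.5 h. Itgb1 had 22.4 h in mock and 8.05 h in LPS samples, Itga5 50.8 and 6.12 h, and Icam1 59.9 and 6.37 h. Of 9 partners tested for this slope 5 were called, and of 20 route proteins 4, beside 13.9% of 3342 proteins. The partners not called were Adam10 (30.2 h in mock, 33.3 h in LPS), Cd36 (19.6 and 26.9 h), H2-DMb1 (26.4 and 27.3 h) and H2-Aa (16.9 and 12.6 h). As for syntenin-1, the old form alone did not show the steeper slopes of Chmp4b, Itgb1, Itga5 and Icam1. For the slope of log2 M/L the differences of Itgb1 (-0.013 per h), Itga5 (0.012) and Icam1 (-0.027) were not called, and that of Chmp4b was called with the opposite sign (0.021). Late old protein was not called for any of the 4, at 0.09 ± 0.08 for Itgb1, 0.06 ± 0.07 for Itga5, 0.06 ± 0.09 for Icam1 and 0.08 ± 0.05 for Chmp4b. With the authors' normalised ratios no protein at all was called for the slope of the old share, so the end of these 4 calls there is not particular to them. Their slope differences kept their sign, at -0.068 per h for Itgb1, -0.082 for Itga5, -0.113 for Icam1 and -0.068 for Chmp4b. Syntenin-1, with 6.17 h in mock samples, was already at that pace without LPS.

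Of 11 common vesicle cargo proteins, all 11 were tested for late new protein and 2 rose, a count near the 12.3% of all proteins. Anxa7, a calcium-dependent membrane-binding protein, was higher by 0.83 ± 0.15 and Hspa8, the constitutive Hsc70 chaperone, by 0.81 ± 0.09, with totals higher by 0.14 ± 0.04 and 0.13 ± 0.04. Total Lamp1, a glycoprotein of the lysosome membrane, fell by 0.21 ± 0.08. Mfge8, which coats vesicles through phosphatidylserine, stood at -0.54 ± 0.70 for new protein and turned over in 7.23 h in mock and 6.34 h in LPS samples. The median of new protein over the 11 was 0.13, against 0.03 over all proteins. Anxa7 was not called without replicate 1 and Hspa8 not with the authors' normalised ratios, and the totals of Lamp1 and Hspa8 were not called in 5 of 10 alternatives.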

How the data were processed

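The members and the gene lists were chosen with earlier results of these data known. Proteins were measured by pulsed SILAC, and per the file headers the columns are those MaxQuant writes. Its version is not stated in the sources at hand, and mm9 is the genome build in the submitters' processing notes. For each protein group in each run the authors deposited M/L, H/L and H/M as a ratio before and after normalisation, the count of peptide pairs behind each ratio, the intensity summed per channel with iBAQ, and the percent of sequence covered. Of 6266 trypsin groups 5899 were kept, without 90 reverse, 97 contaminant and 216 site-only groups (a group can carry more than 1 mark). No per-sample column was left unmatched (0).

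From these, each run was scaled by the median summed ratio (M/L and H/L added) of 2628 proteins (log2 -0.68 to 0.69). Log2 values entered a group-means model of 21 groups (limma 3.58.1, R 4.3.3), with at least 4 of 6 values per arm (2 of 2 at 24 h), and p-values were adjusted by Benjamini-Hochberg over all proteins, called under 0.05. SE are limma's moderated errors. Slopes needed at least 12 of 18 runs per arm, and a half-time is -1/slope. A missing value was dropped from that protein's fit, with none imputed. Intervals from pair counts were not computed, since pairs are not independent molecules. Same-numbered replicates deviated together at all 10 times (r = 0.25 to 0.46 for H/L and 0.31 to 0.55 for M/L over proteins), so the replicate block was tried as an alternative. Proteins named outside the list followed 2 rules: the 3 most alike per member with H/L in at least 36 runs, and list members called late plus up to 4 others. Mfge8, Pdcd6, Tsg101, Hgs, Stam2, Cd2ap and the proteins of the syntenin and ALIX route named at 24 h were chosen after their values were seen. So were the granulocyte markers given singly, which are all those of that list tested for late total protein. The limma fit was tested on simulated data. Figures were drawn with matplotlib 3.10.9 (pandas 2.3.3, numpy 2.4.6, Python 3.11.15).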

Additional observations from a re-analysis of the deposited data

Results flagged for a closer look

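One result of a member stood out between times. The difference of LPS from mock in old syntenin-1 (log2 M/L) at 24 h minus that at 6, 9 and 12 h was -1.57 ± 0.29 (SE), and it passed limma's test of that difference, beside 17.3% of 3062 proteins that did. At the late times the difference was 0.12 ± 0.14, with 0.79 in the 12 h pair of replicate 2, and at 24 h -1.45 ± 0.25, from 2 samples against 2. M/L of both LPS runs lay below both mock runs at 24 h, as in 38.9% of 3136 proteins. The mock samples also moved. Their scaled M/L was 0.172 and 0.114 at 12 h but 0.289 and 0.172 at 24 h, and their H/M at 12 h was 3.25 and 3.74. The value of -1.57 is therefore not a measure of loss under LPS alone, and why mock M/L was higher at 24 h was not tested. H/M, which needs no run factor, stood apart in the same samples, at 6.11 and 12.4 in LPS against 2.32 and 3.26 in mock, as in 44.7% of 3095 proteins. Its own difference of 24 h from late was 0.92 ± 0.44 (SE) and was not called, beside 0.502% of 2987 proteins. The change between times thus passed the test in M/L and not in H/M. Marker shares were also lower in LPS than in mock samples at 24 h, for macrophages (0.240% and 0.342% against 0.481% and 0.736%), granulocytes (0.612% and 0.705% against 0.884% and 0.937%) and dendritic and myeloid cells (0.190% and 0.194% against 0.235% and 0.242%), and their part in the result was not tested.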

How the results depend on the processing

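The counts of called proteins were 408 for late new protein, 588 for late old protein, 656 for the late total, 412 for late H/M, 16 for early new protein, 316 for new protein and 1169 for the total at 24 h, and 464 for the slope. Without the run factor they were 20 for late old protein, 119 for the late total, 2 for early new protein, and 181 and 112 for new protein and the total at 24 h. The authors' normalised ratios gave 1003 for late old protein, 195 for early new protein, 169 and 349 at 24 h, and 0 for the slope (limma; 59 at an unadjusted p under 0.05). Summed channel intensities gave 269, 242, 306 and 255 for the late counts in the order above, 8 for early new protein, and 159 and 603 at 24 h. Subtracting the 0 h H/L gave 216 late, 6 early and 32 at 24 h for new protein. Leaving out 1 replicate, or LPS 12 h replicate 2 alone, gave 158 to 359 for late new protein, 58 to 542 for late old protein, 201 to 559 for the late total, 192 to 351 for late H/M, 0 to 2 for early new protein (0 by limma without replicate 2, with 296 at an unadjusted p under 0.05), 41 to 46 and 730 to 814 at 24 h, and 253 to 426 for the slope. With 1 replicate left, the fits of windows had 1 LPS term per window and took the spread from how that difference varied between times, which at 24 h assumes the lone samples vary like the others.

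The share of late new-protein calls that were higher in LPS was 85.8%, against 96.8% without the run factor, 74.4% with each channel centred and 23.3% with the authors' normalised ratios. For late old protein it was 20.6%, against 37.6% with each channel centred and 54.1% with the normalised ratios. For the late total it was 51.5%, against 91.6% without the run factor and 23.4% with the normalised ratios, and for late H/M 91.7% against 29.3%. For early new protein it was 75.0%, against 96.9% with the normalised ratios. At 24 h it was 77.2% for new protein, against 94.5% without the run factor and 60.4% with the normalised ratios, and 46.9% for the total, against 83.0% without the run factor.

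The slope difference of syntenin-1 turned to 0.023 with the authors' normalised ratios, with an SE of 0.108, and to 0.026 for the slope of log2 M/L (703 proteins called), and the cause was not tested. Its late new protein was also not called without replicate 2 (0.74) or with 0 h subtracted (1.16), nor its late H/M without replicate 2 (0.77). Late old ALIX was called with the normalised ratios (0.06). The replicate block gave 459 calls against 408 for late new protein and changed no call of a member. By the mean percentile of both 0 h trypsin replicates 4 of 5 members lay above 50 (Cd81 in 1 replicate only), and 2 of 3 did among proteins measured in all 3 digests. The limit of at least 3 pairs, the fit without LPS 12 h replicate 2 and the slope of M/L were chosen after seeing the data. Cd82, Cd37 and Cd81 are limited by their few peptide pairs.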
